A study of Danio rerio with 6 samples.

Results

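The genes described here encode proteins that the liver releases into the blood plasma, in 3 subgroups: clotting and clot-dissolving proteins (coagulation), the complement system, and carriers, protease inhibitors and other plasma proteins. They were chosen by gene name. Of 43 names, 40 were found among the 32520 genes of the deposited table, on 41 rows, because *hp* stands under 2 gene identifiers. The rows fall into 13 for coagulation, 13 for complement and 15 for carriers. The names *cfi*, *hrg* and *apoh* matched no row and were not analysed here. RNA was sequenced from whole larvae at 4 days post fertilization (dpf), in 3 pools of 60 wild-type larvae of the AB strain (WT) and 3 pools of 60 *mgt* larvae. The *mgt* (*maggot*) line carries a chemically induced missense allele of *plod3*, which encodes a collagen-modifying lysyl hydroxylase and glycosyltransferase, and the sample labels list these larvae as a *plod3* knockout in the *mgt* background. The deposited unit is RPKM, which divides the reads of a gene by its length and by the depth of the library. Comparing levels between genes rests on that length, which is not given in the sources used here.

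Hepatocytes make most plasma proteins. Fibrinogen and the clotting factors circulate as inactive precursors that are cut in a chain of proteolytic steps, thrombin turns fibrinogen into the fibers of a clot, and plasmin dissolves it again. Complement is a parallel cascade in which cleavage of C3 is the central step and the terminal components assemble into a pore in the membrane of a target cell. In mammals, inflammation shifts the output of the liver: fibrinogen, C3, factor B and haptoglobin are among the positive acute phase proteins, and transferrin, transthyretin and retinol binding protein among the negative ones. These are examples and not a full list. The other members, *serpina1*, *serpina1l*, *c9*, *agt* and *serping1* among them, were not sorted into these classes. In *mgt* the named examples did not all move with their class, as *hp* fell and the C3 paralogs did not move together. Whether the changes follow these classes was not tested. In zebrafish larvae the yolk syncytial layer, which hands yolk nutrients to the body, also expresses apolipoprotein genes and some plasma carrier genes, including *tfa* and *rbp4*.

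An RPKM of 1 stood for 43.4, 43.5 and 50.3 reads per kilobase of gene in WT replicates 1, 2 and 3 and for 42.6, 38.4 and 40.6 in *mgt* replicates 1, 2 and 3, which is the relative depth of the libraries. The labels give batch 1 to every WT pool and batch 2 to every *mgt* pool, and they name either of 2 ribosomal RNA depletion kits without saying which pool had which, so batch and *plod3* genotype cannot be told apart. The methods of the study place the *mgt* alleles on the AB background as well. The RPKM of *plod3* itself was 16.8, 15.3 and 14.2 in WT and 23.9, 24.3 and 24.4 in *mgt*, a log2 fold change of 0.63 (limma adjusted p = 0.0044), and a missense allele cannot be checked from these values. Changes were tested with limma on log2(RPKM + 0.5) over the 20435 genes whose RPKM averaged 0.5 or more. A gene was called at a Benjamini-Hochberg adjusted p below 0.05 with a rise of at least 25% or a fall of at least 20%. By this rule 47.4% of all genes tested were called, 15.6% lower and 31.8% higher in *mgt*. The median gene had a log2 fold change of 0.29, a value that moved to 0.49, 0.03 and -0.0016 with rescaling to the same sum, with median-of-ratios factors and with quantile normalization. Of all calls 67.0% were higher, and this became 82.2%, 49.6% and 46.7% in the same order. WT replicate 1 stood apart from the other WT pools and, on the first principal component, lay 0.53 of the way from them to *mgt*. The p-values measure the spread between these pools, which the labels call biological replicates and a figure legend of the study calls technical ones.

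Of the 41 rows, 40 passed the filter. The row left out is *hp* on chromosome 7 (ENSDARG00000051890), listed at an RPKM of 0 to 0.03, and *hp* below means the gene on chromosome 8 (ENSDARG00000095807). In *mgt*, 15 of the 40 genes (37.5%) were called lower and 6 (15%) were called higher, beside 15.6% and 31.8% of all genes tested. Every *mgt* pool lay below every WT pool in 16 of the 40 and above in 9, beside 21.6% and 41.7% of all genes, or 63.4% in either direction. The median log2 fold change was -0.28 over the 40 genes. The subgroups had medians of -1.19 for the carriers, -0.26 for coagulation and 0.14 for complement, and in each of them the members spread widely. The complement median turned to -0.16 with median-of-ratios factors, to -0.04 with quantile normalization and to -0.05 without WT replicate 1. In whole larvae, fewer liver cells and less RNA per liver cell cannot be told apart.

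**Figure D1:**
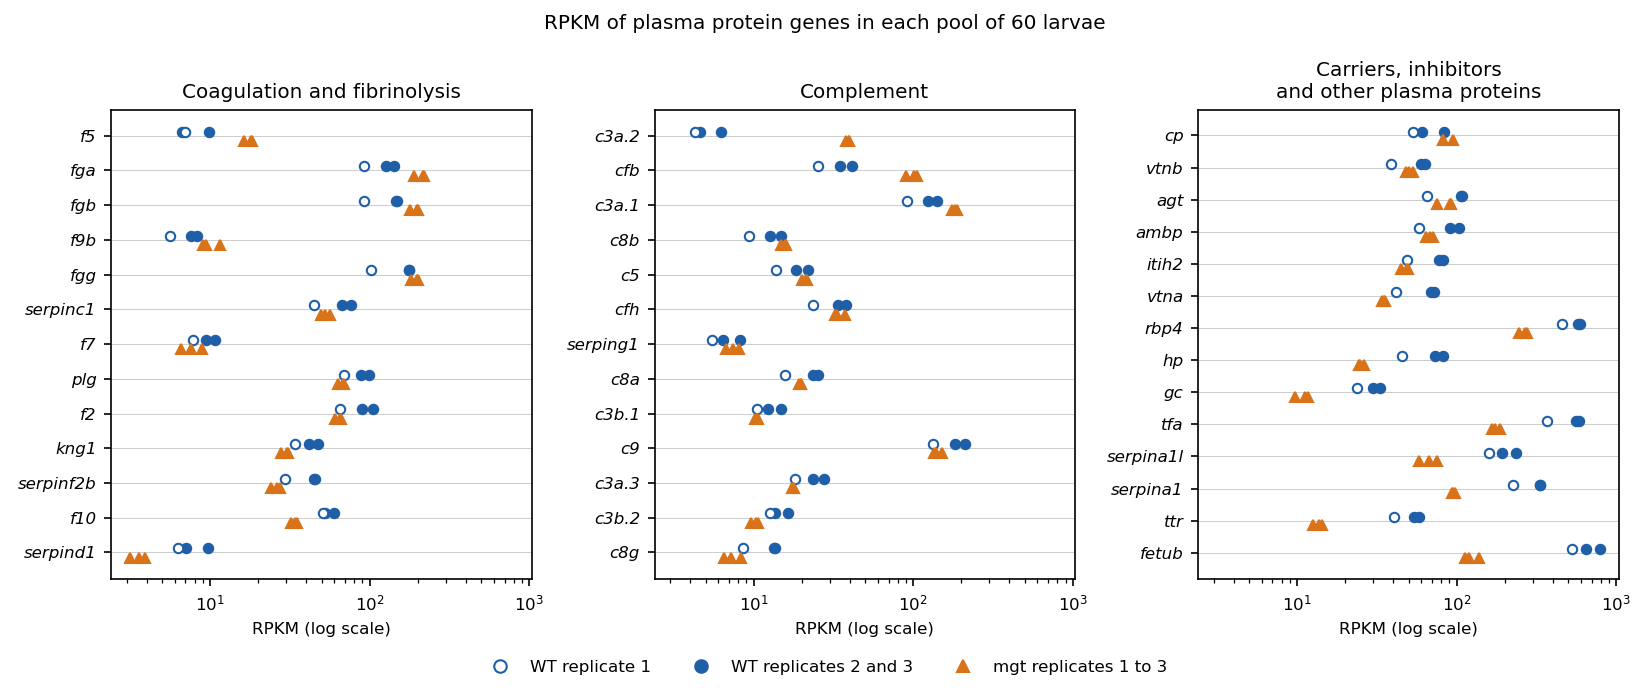
RPKM on a log axis of the 40 tested plasma protein genes, ordered within each subgroup by log2 fold change, in the 3 WT pools (circles, open for WT replicate 1) and the 3 *mgt* pools (triangles). For *fetub* the *mgt* pools sit between 113 and 138 and the WT pools between 527 and 785, whereas for *c3a.2* the *mgt* pools sit at 37.8 to 39.8 and the WT pools at 4.29 to 6.27.

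The carriers and inhibitors held the most abundant members and the deepest falls. In *mgt*, 9 of the 14 tested (64.3%) were called lower and 0 higher by limma, beside 15.6% and 31.8% of all genes tested. At an unadjusted p below 0.05 the counts were 10 and 0. The lowest fold change was that of *fetub* (ENSDARG00000053973, chromosome 22, 37888249 to 37900135 of GRCz11), which encodes fetuin-B, a metalloprotease inhibitor of the plasma. Its RPKM was 527, 785 and 648 in WT replicates 1, 2 and 3 and 113, 120 and 138 in *mgt* replicates 1, 2 and 3. All *mgt* pools lay far below all WT pools, and the mean went from 653 ± 129 (SD of 3 pools) to 124 ± 13 (SD of 3 pools). The log2 fold change was -2.38 (SE 0.16, limma adjusted p = 0.00029), so *fetub* was 5.22-fold lower on the log2(RPKM + 0.5) scale.

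The transcripts of transthyretin, a carrier of thyroid hormone, of the retinol binding protein that travels with it in mammals, and of transferrin all fell. The RPKM of *ttr* (ENSDARG00000037191, chromosome 20) was 40.2, 57.7 and 54.1 in WT replicates 1, 2 and 3 and 13.7, 12.6 and 14.3 in *mgt* replicates 1, 2 and 3. The groups were well apart, with a log2 fold change of -1.85 (SE 0.15, limma adjusted p = 0.00053). For *rbp4* (ENSDARG00000101199, chromosome 12), the member with the highest mean RPKM over the 6 pools, the values were 455, 595 and 575 in WT and 247, 276 and 266 in *mgt*. Again no *mgt* pool reached a WT pool, and the mean went from 542 ± 75.5 (SD of 3 pools) to 263 ± 14.9 (SD of 3 pools), a log2 fold change of -1.03 (SE 0.13, limma adjusted p = 0.0023). The iron carrier transferrin-a, *tfa* (ENSDARG00000016771, chromosome 2), stood at 369, 580 and 557 in WT and at 167, 174 and 186 in *mgt*. Its log2 fold change was -1.49 (SE 0.18, limma adjusted p = 0.0022), with WT replicate 1 the lowest WT pool here as in *ttr* and *rbp4*.

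The antitrypsin genes *serpina1* and *serpina1l* lie 2902 bases apart on chromosome 20 and both fell. The RPKM of *serpina1* was 224, 332 and 333 in WT replicates 1, 2 and 3 and 97.0, 94.5 and 93.4 in *mgt* replicates 1, 2 and 3, a log2 fold change of -1.61 (limma adjusted p = 0.0012). For *serpina1l* it was 159, 235 and 193 in WT and 67.3, 74.9 and 57.9 in *mgt*, a log2 fold change of -1.54 (limma adjusted p = 0.0015). As near copies they may share reads, and how the counting assigned such reads is not given in the sources used here. Vitamin D binding protein, *gc*, fell by 1.37 on the log2 scale, from 23.7, 33.2 and 30.0 to 9.70, 11.1 and 11.7 (limma adjusted p = 0.0015). Haptoglobin, *hp*, which binds free hemoglobin, fell by 1.35, from 45.5, 81.6 and 73.3 to 24.5, 24.7 and 26.4 (limma adjusted p = 0.0051). In both genes the highest *mgt* pool was below the lowest WT pool.

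The adhesion protein vitronectin has a pair of genes in zebrafish, of which 1 was called. For *vtna* the RPKM was 41.9, 72.0 and 68.8 in WT and 33.8, 35.4 and 35.2 in *mgt*, a log2 fold change of -0.76 (limma adjusted p = 0.027), and the call was lost when any pool other than WT replicate 1 was left out. For *vtnb* it was 38.5, 59.3 and 63.3 in WT and 48.1, 53.1 and 50.4 in *mgt*, inside the WT range, with a log2 fold change of -0.06 (95% confidence interval -0.52 to 0.41). The difference between the pair was not tested. Angiotensinogen, *agt*, the precursor of angiotensin, was at 64.7, 107 and 106 in WT and 75.2, 92.7 and 90.1 in *mgt*, also inside the WT range, and its log2 fold change was -0.08 (95% confidence interval -0.59 to 0.44). The protease inhibitor genes *itih2* (-0.50) and *ambp* (-0.27) were not called, with limma adjusted p of 0.077 and 0.30. For *itih2* the WT pools held 48.9 to 81.6 and the *mgt* pools 44.6 to 49.8, and for *ambp* 58.3 to 104 and 64.3 to 70.5, so that WT replicate 1 fell among the *mgt* values or below them. Both passed without WT replicate 1, at -0.73 and -0.52. Ceruloplasmin, *cp*, the copper-carrying ferroxidase, had the highest fold change of the carriers at 0.41 (95% confidence interval -0.01 to 0.83, limma adjusted p = 0.091), with 53.2, 83.5 and 61.0 in WT and 81.7, 94.8 and 82.5 in *mgt*. The *cp* groups overlapped, since WT replicate 2 lay above 2 of the *mgt* pools, and *cp* passed both thresholds when that replicate was left out (0.59) and with rescaling to the same sum (0.64) or quantile normalization (0.55).

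**Figure D2:**
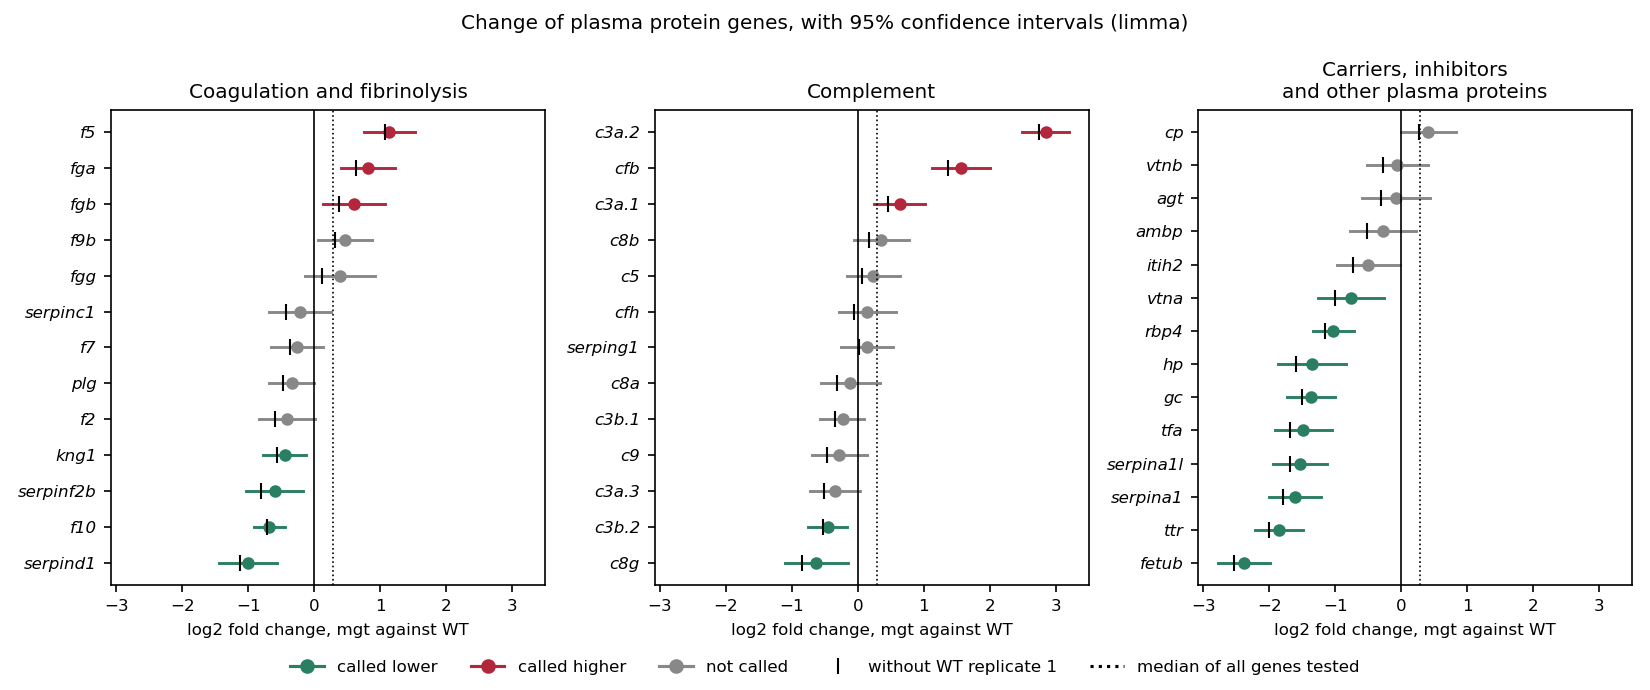
Log2 fold change of *mgt* against WT for the 40 tested genes (points) with 95% confidence intervals from limma (lines), colored by call. Ticks give the log2 fold change without WT replicate 1 and the dotted line the median of all genes tested, 0.29. The carriers reach from -2.38 for *fetub* to 0.41 for *cp*, and complement from -0.63 for *c8g* to 2.85 for *c3a.2*.

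In the coagulation subgroup, 4 of 13 genes (30.8%) were called lower and 3 (23.1%) higher, beside 15.6% and 31.8% of all genes tested. The genes for the 3 fibrinogen chains were the most abundant. The RPKM of *fga*, the alpha chain (ENSDARG00000020741, chromosome 1, 10063501 to 10071539), was 91.4, 143 and 126 in WT replicates 1, 2 and 3 and 190, 219 and 217 in *mgt* replicates 1, 2 and 3. Every *mgt* pool was above every WT pool, with a log2 fold change of 0.81 (SE 0.17, limma adjusted p = 0.013). The beta chain gene *fgb*, 4004 bases away, was at 92.1, 146 and 149 in WT and 178, 201 and 196 in *mgt*, a log2 fold change of 0.60 (SE 0.20, limma adjusted p = 0.043). The gamma chain gene *fgg*, elsewhere on chromosome 1, was at 102, 176 and 177 in WT and 182, 197 and 200 in *mgt*. Its groups did not overlap either, but WT replicates 2 and 3 came close to *mgt*, and the log2 fold change of 0.39 (95% confidence interval -0.14 to 0.92, limma adjusted p = 0.18) was not called. It was called with rescaling to the same sum (0.62) and with quantile normalization (0.66), and was 0.12 without WT replicate 1. The *fgb* call was lost when any pool other than WT replicate 1 was left out and with no filter, and that of *fga* without *mgt* replicate 2 or 3. With median-of-ratios factors neither *fga* nor *fgb* was called.

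The highest fold change of the clotting genes was that of *f5* (ENSDARG00000055705, chromosome 9), which encodes factor V, the cofactor with which factor X activates prothrombin. Its RPKM was 6.94, 9.81 and 6.70 in WT and 16.3, 18.4 and 18.1 in *mgt*, with wide space between the groups. The log2 fold change was 1.14 (SE 0.16, limma adjusted p = 0.0034). Factor X itself, *f10* (ENSDARG00000088581, chromosome 1), went the other way, with 50.8, 60.0 and 52.2 in WT and 34.9, 34.2 and 32.1 in *mgt*. The WT pools were tight for this gene, WT replicate 1 included, and the log2 fold change was -0.68 (SE 0.10, limma adjusted p = 0.0038). Heparin cofactor II, *serpind1*, an inhibitor of thrombin, had the lowest fold change of the subgroup: 6.25, 9.74 and 7.08 in WT and 3.58, 3.92 and 3.16 in *mgt*, a log2 fold change of -1.0 (SE 0.18, limma adjusted p = 0.0079). Levels this low rest on fewer reads, and the *serpind1* groups still did not overlap.

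Alpha-2-antiplasmin, *serpinf2b*, the main plasmin inhibitor, fell by 0.60 on the log2 scale, from 29.6, 44.9 and 45.5 to 23.9, 27.2 and 26.4 (limma adjusted p = 0.034). Kininogen, *kng1*, the precursor of bradykinin, fell by 0.45, from 34.2, 47.1 and 41.8 to 28.0, 30.4 and 30.6 (limma adjusted p = 0.033). Neither call held when any pool other than WT replicate 1 was left out, nor with rescaling to the same sum, and that of *serpinf2b* was also lost after removing the trend of the values on gene span. The remaining clotting genes were not called: prothrombin *f2* (-0.41), plasminogen *plg* (-0.34), factor VII *f7* (-0.26), antithrombin *serpinc1* (-0.21) and factor IX *f9b* (0.46), with limma adjusted p from 0.064 to 0.39. The WT and *mgt* pools held 65.1 to 105 and 60.2 to 66.2 for *f2*, and 69.1 to 99.2 and 62.8 to 69.5 for *plg*. They held 7.76 to 10.7 and 6.56 to 8.91 for *f7*, and 45.0 to 75.9 and 49.6 to 56.5 for *serpinc1*. In each of these the groups overlapped at the level of WT replicate 1. Without WT replicate 1 *f2*, *plg*, *f7* and *serpinc1* were called lower, at -0.60, -0.48, -0.37 and -0.43. For *f9b* every *mgt* pool, from 9.00 to 11.5, was above every WT pool, from 5.62 to 8.22, and it was called with rescaling to the same sum (0.68) and after removing the span trend (0.62). The neighbors *f7* and *f10* lie 10656 bases apart on chromosome 1.

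In the complement subgroup, 3 of 13 genes (23.1%) were called higher and 2 (15.4%) lower. Over all genes tested the shares were 31.8% and 15.6%, so neither count stood above them. C3 is encoded by several paralogs in zebrafish, and those of the *c3a* cluster on chromosome 1 did not move together. The RPKM of *c3a.2* (ENSDARG00000087359, 56229674 to 56266731) was 4.29, 6.27 and 4.63 in WT replicates 1, 2 and 3 and 37.8, 39.8 and 39.6 in *mgt* replicates 1, 2 and 3. It had the highest fold change of all 40 genes, 2.85 on the log2 scale (SE 0.15, limma adjusted p = 0.00012), or 7.19-fold. The most abundant paralog, *c3a.1* (ENSDARG00000012694), was at 91.5, 140 and 124 in WT and 174, 181 and 189 in *mgt*, with no overlap and a log2 fold change of 0.64 (SE 0.16, limma adjusted p = 0.021). Its call was lost without WT replicate 3, without any of the *mgt* replicates, with median-of-ratios factors and after removing the span trend. For *c3a.3*, which begins 7881 bases past the end of *c3a.2*, the values were 18.1, 27.5 and 23.6 in WT and 17.9, 17.8 and 17.4 in *mgt*, a log2 fold change of -0.35 (limma adjusted p = 0.10) that was called without WT replicate 1, at -0.51. Within the RPKM total of the 3 *c3a* genes, *c3a.2* made up 3.04% to 3.77% in the WT pools and 16.1% to 16.6% in the *mgt* pools, while *c3a.3* went from 15.5% to 15.9% down to 7.07% to 7.80%. These shares were alike in WT replicate 1 and the other WT pools. Paralogs this similar may share reads, and *c3a.2* overlaps the gene AL928676.1 in the annotation, so the split between them is less certain than the sum, which was 114, 174 and 152 in WT and 230, 239 and 246 in *mgt*.

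Of the *c3b* paralogs on chromosome 22, 1 was called. The RPKM of *c3b.2* was 12.7, 16.4 and 13.6 in WT and 9.66, 10.3 and 10.7 in *mgt*, a log2 fold change of -0.45 (limma adjusted p = 0.026), and its call did not hold when any pool other than WT replicate 1 was left out or with rescaling to the same sum. For *c3b.1* it was 10.5, 14.8 and 12.2 in WT and 10.1, 10.7 and 10.6 in *mgt*. These groups overlapped at the level of WT replicate 1, and the log2 fold change of -0.23 was not called (limma adjusted p = 0.19), although it was without WT replicate 1, at -0.35.

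Factor B, *cfb* (ENSDARG00000055278, chromosome 21, 27416284 to 27431397), which forms the alternative pathway convertase with C3, rose with *c3a.2* and *c3a.1*. Its RPKM was 25.4, 41.3 and 34.7 in WT and 90.6, 101 and 106 in *mgt*, a log2 fold change of 1.56 (SE 0.18, limma adjusted p = 0.0018), or 2.96-fold. The lowest *mgt* pool had more than any WT pool by a wide margin. Factor H, *cfh*, which restrains that convertase, was at 23.6, 37.7 and 33.7 in WT and 37.5, 32.4 and 33.5 in *mgt*, and its log2 fold change was 0.14 (95% confidence interval -0.29 to 0.58). A gene that the table describes as complement factor I, the protease that works with factor H, carries the clone name CABZ01073265.1 and was looked up after the values had been seen. It was at 66.0, 97.3 and 112 in WT and 97.2, 114 and 107 in *mgt*, with a log2 fold change of 0.24 that was not called (limma adjusted p = 0.34). The C1 inhibitor gene *serping1* was not called at 0.14 (limma adjusted p = 0.48), with 5.51 to 8.24 in WT and 6.75 to 8.07 in *mgt*.

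Of the 5 genes of the terminal pathway, which leads to the membrane pore, 1 was called. This was *c8g*, the gamma chain of C8, at 8.56, 13.4 and 13.6 in WT and 8.37, 6.56 and 7.18 in *mgt*. Its log2 fold change was -0.63 (SE 0.20, limma adjusted p = 0.041), and the highest *mgt* pool was close to WT replicate 1. The *c8g* call was lost without any pool other than WT replicate 1, with no filter, with the replicate block, with rescaling to the same sum and after removing the span trend. The most abundant terminal gene was *c9*, whose product forms the ring of the pore: 132, 212 and 182 in WT and 136, 139 and 151 in *mgt*. Only WT replicates 2 and 3 were above *mgt*, and the log2 fold change was -0.28 (SE 0.18, limma adjusted p = 0.21). Without WT replicate 1 *c9* was called lower, at -0.47. The log2 fold change was 0.23 for *c5*, -0.11 for *c8a* and 0.35 for *c8b*, none called. With rescaling to the same sum 5 genes of the complement subgroup were called higher, *c5* (0.46) among them. The WT and *mgt* pools held 13.8 to 21.9 and 20.1 to 21.4 for *c5*, 15.6 to 25.5 and 19.2 to 19.8 for *c8a*, and 9.33 to 14.91 and 14.93 to 15.99 for *c8b*. Every *mgt* pool was thus above every WT pool for *c8b*, by a very small margin. The *c8a* gene lies within the span of *c8b* on chromosome 2, so their reads may not be separable. Likewise *c9*, *cp*, *serpind1*, *kng1*, *f2*, *itih2*, *vtna* and *serping1* overlap other genes in the annotation, and whether the counting used strand is not given in the sources used here.

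**Figure D3:**
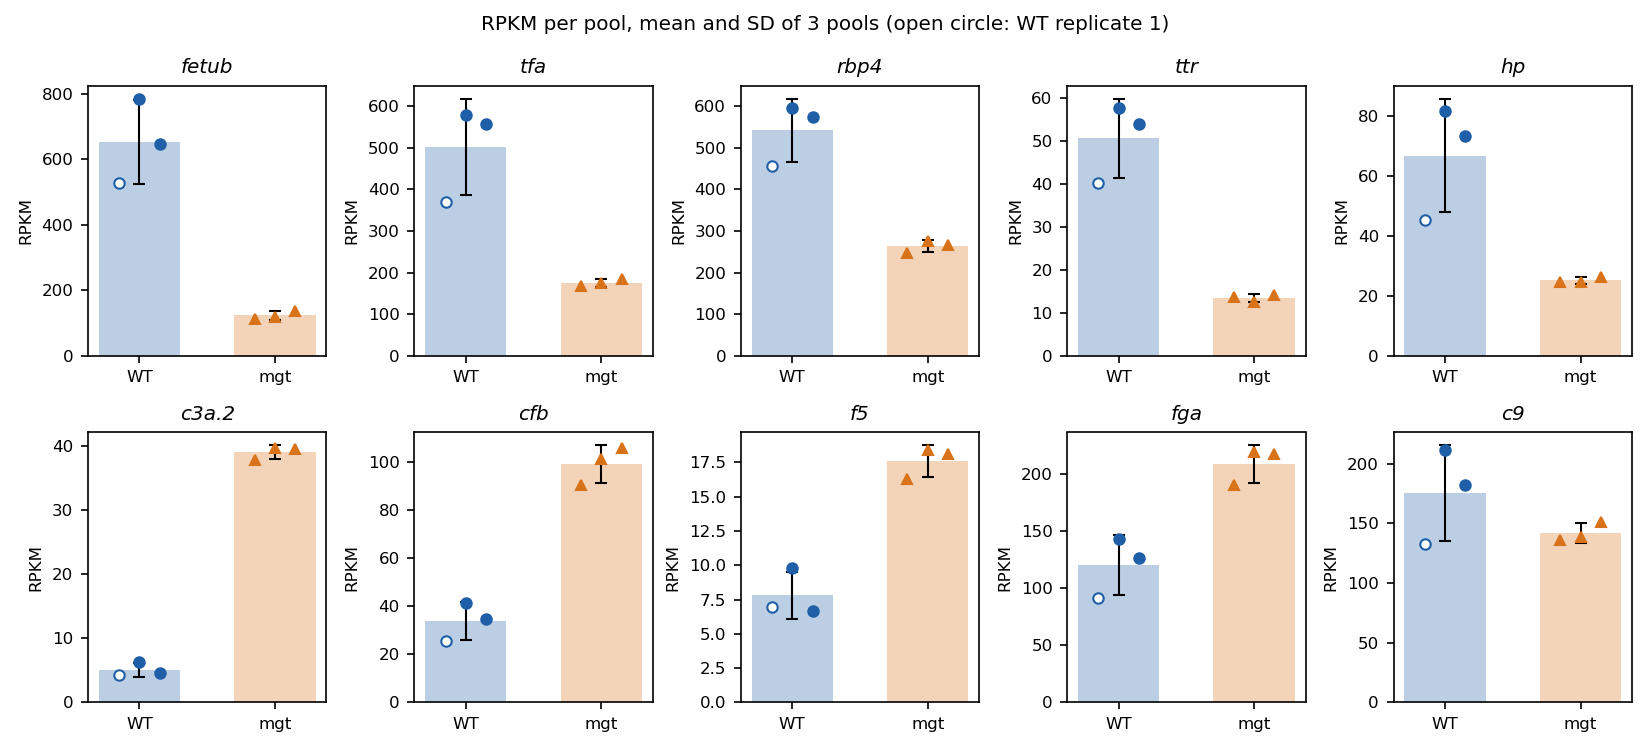
RPKM of 10 genes in each pool (points, open for WT replicate 1), with the mean (bars) and SD (error bars) of 3 pools per genotype. In the 5 carriers of the upper row the *mgt* pools lie below every WT pool, in *c3a.2*, *cfb*, *f5* and *fga* they lie above, and in *c9* the groups overlap.

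The WT pools themselves differed in the level of nearly all of these genes. WT replicate 1 was below both other WT pools in 39 of 40 genes and below their mean in all 40, by a median of -0.53 on the log2 scale, where the median over all genes tested was 0.28. This shift was even across the genes, from -0.79 for *fgg* to -0.14 for *f10*, with an SD of 0.16 over the 40. The difference of *mgt* from the same pools ran from -2.53 for *fetub* to 2.75 for *c3a.2*, with an SD of 0.97. Against WT replicate 1 alone the median of the 40 genes was -0.02 in *mgt*, with -0.82 for the carriers, -0.02 for coagulation and 0.39 for complement. The count called lower was 24 without WT replicate 1, 9 more genes than with it, beside 18.2% of all genes, and the count called higher stayed at 6, beside 52.0% of all genes. The genes *f5*, *cfb*, *c3a.2*, *fetub*, *ttr*, *serpina1*, *serpina1l*, *tfa*, *gc*, *hp* and *rbp4*, 11 in all, kept their call under each alternative but the stricter fold threshold, 2.38-fold, which left 7 lower (*fetub*, *ttr*, *serpina1*, *serpina1l*, *tfa*, *gc* and *hp*) and 2 higher (*cfb* and *c3a.2*). Apart from that threshold, *serpind1* and *f10* lost their calls only when measured against the median gene of the 40 in the same pool. That alternative was chosen after seeing the data. How many of all genes kept their call in this way was not counted.

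**Figure D4:**
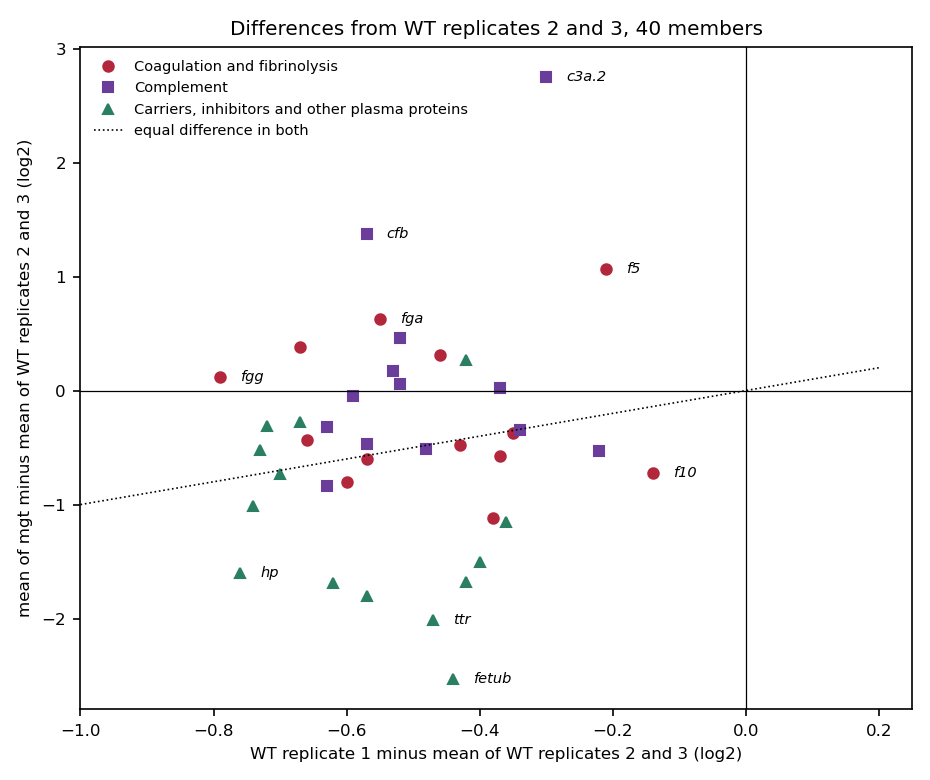
Each of the 40 genes by its log2 difference between WT replicate 1 and the mean of WT replicates 2 and 3 (x axis) and between the mean of the *mgt* pools and the same WT mean (y axis). All genes lie left of 0, between -0.79 and -0.14, while they spread from -2.53 to 2.75 along the y axis. Both axes share WT replicates 2 and 3.

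The make-up of the plasma protein transcripts was therefore set beside their level. The summed RPKM of the 41 rows was 3127, 4710 and 4312 in WT replicates 1, 2 and 3 and 2514, 2726 and 2731 in *mgt* replicates 1, 2 and 3, or 0.651%, 0.905% and 0.790% of all RPKM against 0.580%, 0.620% and 0.620%. Of this sum, the 5 most abundant carriers (*rbp4*, *fetub*, *tfa*, *serpina1* and *serpina1l*) took 53.5% to 55.5% in WT and 27.1% to 27.5% in *mgt*. The fibrinogen chains took 9.13%, 9.86% and 10.5% in WT and 21.9%, 22.6% and 22.5% in *mgt*. For *fetub* alone the share was 15% to 16.8% in WT and 4.39% to 5.06% in *mgt*, and for *cfb* 0.805% to 0.877% and 3.60% to 3.87%. WT replicate 1, although low in level, had the WT make-up in each of these shares. Shares sum to a whole, so a fall of the carriers raises the others. The chains of fibrinogen held nearly even proportions, and *fga* went from 27.9% to 32.0% of their sum in WT to 34.5% to 35.5% in *mgt*.

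**Figure D5:**
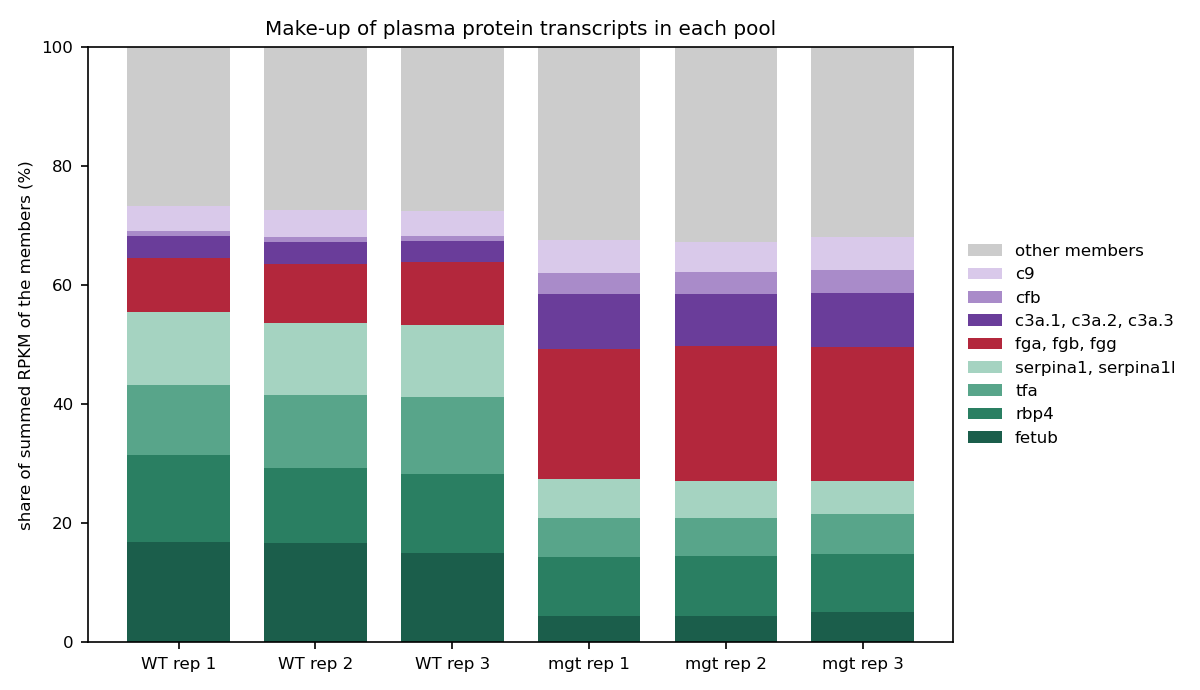
Share of the summed RPKM of all plasma protein rows (y axis, percent) taken by single genes or groups of genes in each of the 6 pools (bars). The fibrinogen chains take 9.13% to 10.5% in the WT pools and 21.9% to 22.6% in the *mgt* pools, and *fetub* 15% to 16.8% and 4.39% to 5.06%.

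Measured against the median gene of the 40 in the same pool, an alternative chosen after seeing the data, 8 genes were called lower and 14 higher, beside 3.62% and 42.2% of all genes. The 8 were *fetub*, *ttr*, *serpina1*, *serpina1l*, *tfa*, *gc*, *hp* and *rbp4*, from -1.92 to -0.57 relative to the other members. The 14 higher genes were the 6 called on the deposited scale together with *fgg* (0.85), *f9b* (0.93), *c8b* (0.82), *c5* (0.70), *cfh* (0.61), *serping1* (0.61), *vtnb* (0.41) and *cp* (0.88). On this scale a value says only that a gene changed unequally from its companions.

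Other genes of the same cascades, listed by name, also went both ways. The counts of these lists and of the marker lists stand beside 31.8% higher and 15.6% lower over all genes tested. Of 18 further coagulation rows tested, 8 (44.4%) were called higher and 3 (16.7%) lower, with a median log2 fold change of 0.33. The highest was *f8*, factor VIII, at an RPKM of 0.683 ± 0.21 (SD of 3 pools) in WT and 5.19 ± 0.083 (SD of 3 pools) in *mgt*, a log2 fold change of 2.28 (limma adjusted p = 0.00033). The second antiplasmin gene, *serpinf2a*, fell by 1.53 on the log2 scale (limma adjusted p = 0.0014), further than *serpinf2b*. Many of these genes are also made outside the liver, as *vwf* and *plat* are in vessel walls. The higher call of *vwf* rests on a mean RPKM of 0.193 in WT and 0.957 in *mgt*. It passed the filter of 0.5 only through the *mgt* pools.

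Of 19 further complement rows tested, 9 (47.4%) were called higher and 4 (21.1%) lower, with a median of 0.37. The higher calls include *c1qc*, at a mean RPKM of 0.367 in WT and 0.967 in *mgt*, and *c4*, at 0.383 and 0.820. Both passed the filter of 0.5 only through the *mgt* pools. Mannose-binding lectin, *mbl2*, which starts the lectin pathway, fell from 33.4 ± 10.2 (SD of 3 pools) to 4.80 ± 0.55 (SD of 3 pools), a log2 fold change of -2.64 (limma adjusted p = 0.00056). Factor D, *cfd*, the protease that cuts factor B, fell by 1.45 on the log2 scale (limma adjusted p = 0.00087), while *cfb* rose. The C4 gene *c4b* rose from 6.52 ± 1.26 (SD of 3 pools) to 37.2 ± 0.98 (SD of 3 pools), a log2 fold change of 2.44 (limma adjusted p = 0.00017). In the terminal pathway *c6* (ENSDARG00000057113) rose by 2.70 on the log2 scale and *c7a* by 1.38, while *c7b* fell by 0.94. The most abundant gene of this list, *cfhl4*, was at 108 ± 29.5 (SD of 3 pools) in WT and 113 ± 6.96 (SD of 3 pools) in *mgt* and was not called.

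Genes of the acute phase response in zebrafish or mammals were listed as well. Of the 11 rows tested, 5 (45.5%) were called higher and 2 (18.2%) lower, with a median log2 fold change of 0.07. Over all genes tested the median was 0.29. As the pools are whole larvae, the values do not give the tissue in which a gene of this list changed. The feedback genes of cytokine signaling *socs3b* and *socs3a* rose by 2.42 and 2.13 on the log2 scale, the transcription factor gene *stat3* by 1.57 and *cebpb* by 1.05 (limma adjusted p from 5.1e-05 to 0.00062), and WT replicate 1 was within 0.36 of the other WT pools in all of these. Of the secreted proteins, the C-reactive protein gene *crp1* rose from 2.17 ± 0.36 (SD of 3 pools) to 4.17 ± 0.49 (SD of 3 pools), a log2 fold change of 0.81 (limma adjusted p = 0.0095). A more abundant C-reactive protein gene, *crp2* (ENSDARG00000056498), fell by 2.23 and *lect2l* by 0.71, and *crp3*, *hamp* and *leap2* were not called. The serum amyloid gene *saa* was below the filter, at a mean RPKM of 0.260 in WT and 0.703 in *mgt*.

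The labelled sample is the whole larva, and the liver was checked by its own markers. All 16 transcription factors listed for the liver were detected, with summed RPKM of 84.9 to 106 in WT and 147 to 150 in *mgt*. Of the 16, 9 (56.2%) were called higher and 1 (6.25%) lower, with a median log2 fold change of 0.60. The largest rises were those of *onecut1* (1.68), *foxa1* (1.29), *gata4* (1.21) and *prox1a* (1.20). For *prox1a* WT replicate 1 came close to *mgt*, with 16.1, 5.88 and 4.96 in WT and 18.5, 17.9 and 19.4 in *mgt* (limma adjusted p = 0.047). WT replicate 1 was also the highest WT pool for *onecut1* (3.27, beside 1.58 and 1.51) and *foxa1* (4.16, beside 2.49 and 1.96). For *gata4* it was the lowest (3.72, beside 5.72 and 5.23). Of the others, *hnf4a*, which directs many plasma protein genes, was not called (-0.13), *cebpa* rose by 0.36 and the bile acid receptor gene *nr1h4* fell by 0.96. Several genes of the list, among them *prox1a*, *gata4* and *sox9b* (1.01, called higher), are also active in lens, heart or other organs. Of 26 enzymes and binding proteins kept inside liver cells, 14 (53.8%) were called lower and 5 (19.2%) higher, none at 0 in all pools. Their median log2 fold change was -0.50, and their summed RPKM was 3462 to 5202 in WT and 3635 to 3956 in *mgt*. That sum leans on its most abundant gene, *bhmt*, which was not called (0.31). The RPKM of *bhmt* was 1172, 1779 and 1989 in WT and 1901, 2091 and 1995 in *mgt*. The higher calls include *cps1*, at a mean RPKM of 0.057 in WT and 0.963 in *mgt*, and *otc*, at 0.477 and 1.27. Both passed the filter of 0.5 only through the *mgt* pools. The liver fatty acid binding protein *fabp10a* fell by 3.60 on the log2 scale, *hpdb* of tyrosine breakdown by 1.91 and the liver glycogen synthase *gys2* by 1.76, while the gluconeogenic genes *g6pca.1* and *pck1* rose by 1.79 and 1.05. WT replicate 1 was below both other WT pools in 21 of these 26, as it was in the plasma protein genes.

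Markers of other tissues moved too, and their part in the plasma protein values was not tested. In the list of apolipoprotein genes of the yolk syncytial layer and liver, 9 of 15 (60.0%) were called lower and 1 (6.67%) higher, with summed RPKM of 10001 to 16498 in WT and 8197 to 8911 in *mgt* and with WT replicate 1 below both other WT pools in 15 of 15. All 16 markers of the exocrine pancreas were called lower, with summed RPKM of 6159 to 9181 in WT and 606 to 650 in *mgt*. Of 9 intestinal markers 8 were called lower and 0 higher by limma, where 1 was higher at an unadjusted p below 0.05. The summed RPKM of the intestinal markers was 997 to 1531 in WT and 155 to 170 in *mgt*. Among the 8, *chia.3*, at a mean RPKM of 4.01 in WT and 0.277 in *mgt*, also passed the filter only through the WT pools. Among 10 markers of macrophages and neutrophils, which also make some complement proteins, 6 (60.0%) were called higher and 0 lower (0 at an unadjusted p below 0.05), with summed RPKM of 37.8 to 46.4 in WT and 54.2 to 58.6 in *mgt*. WT replicate 1 was also below both other WT pools in 15 of the 16 pancreas markers. The counts were 4 of the 9 intestinal markers and 6 of the 10 markers of macrophages and neutrophils. No marker of these lists was at 0 in all pools.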

How the data were processed

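Quality control (FastQC), trimming (cutadapt 5.2), alignment to GRCz11 (STAR) and counting per gene (HTSeq) were done by the authors, who deposited RPKM values rounded to 2 decimals. The gene length used for RPKM is not given in the sources used here. The deposited table also holds, for each genotype, the authors' RPKM average and SD, with a ratio of the averages, none of which were used. Their WT mean leaves out WT replicate 1: it matched the average of the other WT pools in 32520 of 32520 genes, within 1e-06. One repeated identifier was dropped. The description of WT replicate 3 names a library number that differs from the number in the data column it points to. The column it points to was used, and the mismatch was not resolved. Depth was read from genes spanning at most 160 bases, where RPKM steps by single reads. Members with few reads are the least precise.

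Log2(RPKM + 0.5) was tested with limma 3.58.1 in R 4.3.3 (eBayes with trend) after a filter at an average RPKM of 0.5. Alternatives were pseudocounts of 0.1 and 1, no filter and a filter at 1, rescaling to the same sum, median-of-ratios factors, quantile normalization, removal of a lowess trend on gene span, eBayes without trend or robust, other fold thresholds, a replicate block, and leaving out each replicate. The code was tested on simulated data. The members and lists were chosen with earlier results of these data known. By rule, the text names per subgroup the 3 members with the highest mean RPKM and the 2 with the lowest and the 2 with the highest log2 fold change, and the other members are also given. Context genes named besides the most abundant of their list were chosen after their values were seen. Some genes of these lists are not reported here by name. Plots were drawn with matplotlib 3.10.9.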

Additional observations from a re-analysis of the deposited data

How the results depend on the processing

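Pseudocounts of 0.1 and 1, the filter at a mean RPKM of 1, eBayes without trend or robust and no fold threshold left the 15 lower and 6 higher calls as they were. With rescaling to the same sum the median log2 fold change of the members was -0.044, with 11 members higher (coagulation 2 lower and 5 higher, complement 0 lower and 5 higher, carriers 1 higher), and 1907 of all genes lower and 8816 higher. With median-of-ratios factors the median was -0.58, with 3 members higher (coagulation 1), and 4959 of all genes lower and 4872 higher. Quantile normalization gave 5338 of all genes lower and 4672 higher, with 1 carrier higher, and no filter gave 1 complement gene lower. Removal of the span trend gave 15 members lower and 6 higher, of which 13 and 5 were among the main calls. The others were gained in that setting. Its totals, gained or not, were 3 lower and 4 higher in coagulation and 3 lower and 2 higher in complement. The 2.38-fold threshold left 7 members lower and 2 higher (coagulation 0 and 0, complement 0 lower), and 487 and 1687 of all genes. Relative to the median member, an alternative chosen after seeing the data, 8 members were lower and 14 higher (coagulation 0 and 5, complement 0 and 7, carriers 2 higher). With a replicate left out in turn, 10 to 24 members were lower and 3 to 6 higher. The ranges were 2 to 8 and 1 to 3 in coagulation, 0 to 5 lower in complement, 0 to 1 higher in the carriers, and 1679 to 3716 and 2395 to 10634 of all genes.

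Changes of sign were seen in genes that were not called, and in *kng1* (0.016) and *c3b.2* (0.011) relative to the median member. In that setting *ambp* (0.19), *c9* (0.19), *agt* (0.39), *plg* (0.13), *f7* (0.21), *f2* (0.055), *c8a* (0.36), *serpinc1* (0.26), *c3a.3* (0.12), *vtnb* (0.41) and *c3b.1* (0.23) also turned positive. With rescaling to the same sum *agt* (0.16), *c8a* (0.12), *serpinc1* (0.022) and *vtnb* (0.18) did. Median-of-ratios factors turned *c5* (-0.066), *serping1* (-0.14) and *cfh* (-0.16), quantile normalization *agt* (0.093) and *serping1* (-0.18), and removal of the span trend *agt* (0.12), *c5* (-0.040) and *vtnb* (0.039). With a replicate left out, *agt* ranged from -0.31 to 0.047, *c8a* from -0.32 to 0.024, *vtnb* from -0.28 to 0.079 and *cfh* from -0.051 to 0.28. The cause was not tested.

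The replicate numbers were not taken to pair the pools, as the deviations of same-numbered pools had correlations of -0.03, 0.03 and 0.027. With the replicate block 14 members were lower and 6 higher, with 1 lower in complement, since the call of *c8g* was lost.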
